A study of Mus musculus with 8 samples.

Results

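The genes described here carry out peptide presentation on major histocompatibility complex (MHC) class I molecules, and include the subunits that turn a proteasome into an immunoproteasome. The group was chosen by name and holds 10 genes of the 52325 gene identifiers measured: the class I heavy chains *H2-K1* and *H2-D1*, their light chain *B2m*, the peptide transporter genes *Tap1* and *Tap2*, the loading factor *Tapbp*, the immunoproteasome subunits *Psmb8*, *Psmb9* and *Psmb10*, and the transactivator *Nlrc5*. RNA-seq was performed on costal (rib) chondrocytes, cartilage cells released by collagenase, from mice 7 d old. The comparison asks which transcripts change when *Mir140*, the gene of the cartilage microRNA miR-140, is missing. There were 4 wild-type (WT) control libraries and 4 *Mir140*-null libraries, both labelled C57BL/6J. The null allele was made with CRISPR/Cas9 in zygotes, so *Mir140* is missing from every cell of the null animals, not from chondrocytes alone. CBA/ca as well as C57BL/6 entered the pedigree at the founders, and C57BL/6J was the strain of later backcrosses. Null and wild-type mice were then kept as lines of their own, so they need not be littermates. The labels do not say that each library came from a different animal, so the p-values measure the spread between these libraries, which may be technical.

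In *Mir140*-null chondrocytes *Tapbp* and *Tap2* were up-regulated, by 1.16 and 0.99 on the log2 scale. No gene of the group was down-regulated. *B2m*, *H2-K1* and *H2-D1*, which encode the light chain and the heavy chains of class I molecules, did not pass the test, and neither did *Tap1*, *Psmb10* or *Nlrc5*. *Psmb8* and *Psmb9* were too low to be tested.

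Almost all nucleated cells can display class I molecules. Proteasomes cut cytosolic proteins into peptides, the transporter formed by TAP1 and TAP2 carries these into the endoplasmic reticulum, and tapasin, the product of *Tapbp*, holds the empty class I molecule at the transporter until it binds a peptide. Interferon-gamma induces most of these genes, and it also leads to exchange of the catalytic proteasome subunits encoded by *Psmb5*, *Psmb6* and *Psmb7* for those encoded by *Psmb8*, *Psmb9* and *Psmb10*. NLRC5 acts at class I promoters together with factors bound to a conserved upstream module, and NF-kappaB and interferon regulatory factors bind further upstream. Cartilage is a tissue without blood vessels, and chondrocytes lie enclosed in their own matrix.

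Of the 10 genes, 7 lie in the MHC region of chromosome 17 (mm10), within 1.35 Mb from *Tapbp* to *H2-D1*. *Psmb9*, *Tap1*, *Psmb8* and *Tap2* lie there side by side within 34.3 kb, and the gene bodies of *Psmb9* and *Tap1* overlap by 212 bases on opposite strands. *B2m* is on chromosome 2. *Nlrc5* and *Psmb10* are on chromosome 8, the chromosome of *Mir140* itself, at distances of 13.0 Mb and 1.61 Mb from the deleted gene.

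The promoter motifs of class I genes are shown first, because they are where the interferon and NF-kappaB routes meet these genes. RefSeq windows of 250 bases before to 50 bases after the start site (GRCm38.p6) were found for 8 of the 10 genes, *Nlrc5* and *Tap2* having no entry. Both strands were searched. The NF-kappaB letters (GGG, any 2 bases, TT, any base, CC) were present in 3 of the 8 windows, those of *B2m*, *H2-K1* and *H2-D1*, and in 4.71% of all 27025 windows. The interferon-response letters (GAAA, any 2 bases, GAAA) were present in 1 of the 8, that of *B2m*, and in 3.49% of all windows. In the following stretches, each written 5′ to 3′ on the strand of the gene, capitals mark the matched letters. *H2-K1* is read from the minus strand at chr17:34000439-34000468, *H2-D1* from the plus strand at chr17:35262913-35262942, and *B2m* from the plus strand at chr2:122147538-122147567 and chr2:122147551-122147580.
H2-K1 kappaB: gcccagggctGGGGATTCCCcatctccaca
H2-D1 kappaB: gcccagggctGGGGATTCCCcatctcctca
B2m interferon response: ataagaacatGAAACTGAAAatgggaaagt
B2m kappaB, opposite strand: actgaaaatgGGAAAGTCCCtttgtaacct
The heavy chain genes carried the same match with the same bases before it, whereas the 2 matches of *B2m* were different letters that lay close together, so that the stretches printed for them overlap. The letters CCAAT were found in 6 of the 8 windows, *Tapbp* included, against 37.9% of all windows, and TGACG in 5 of the 8, *Tapbp* not included, against 21.02%. The windows of *Tap1* and *Psmb9* overlap and hold the same CCAAT and TGACG. Such matches are descriptions of the sequence and not evidence of binding.

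The second set shows the deleted microRNA and the places in the group's 3′UTRs that match its 3p arm. The mature miR-140-3p of RefSeq lies at chr8:107551288-107551308 on the plus strand, and capitals mark its seed at bases 2 to 8.
miR-140-3p: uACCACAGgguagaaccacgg
The complement of this seed, CTGTGGT, was absent from the longest annotated 3′UTRs of all 10 genes and present in those of 19.0% of the 12988 tested genes with a 3′UTR. A form of the arm that begins 1 base later has the complement CCTGTGG, which occurred in 20.2% of these genes and once each in *B2m* and *Tapbp*. The 3′UTR stretches around it, with the match in capitals, lie on the plus strands at chr2:122153027-122153053 and chr17:33928857-33928883.
B2m 3′UTR: cacccccaacCCTGTGGctacttctgc
Tapbp 3′UTR: gggttcataaCCTGTGGctcacaaccc
*Tapbp* had the largest change in the group and *B2m* had no detected change. Whether either match acts on the level of its gene was not tested. The 5p arm was not searched. The 3′UTRs of the 10 genes were 55 bases (*Psmb10*) to 1197 bases (*Nlrc5*) long, and the shares of all tested genes were not matched for length.

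Before the genotypes were compared, the libraries themselves were examined. Levels are in TPM, transcript abundance corrected for length and scaled to the same total in each library. *Mir140* was listed at 0 TPM in all libraries except the library labelled *Mir140*-null replicate 2, at 8.86 TPM, and so gives no check of the labels. The summed TPM of 12 chondrocyte markers ranged from 60654 to 76469 in WT and from 44404 to 60933 in *Mir140*-null libraries. Of these markers *Acan* was up-regulated (0.88, limma adjusted p = 0.0107), and *Chad* (-1.21, 0.00801), *Hapln1* (-0.57, 0.0100), *Col9a1* (-0.43, 0.0467) and *Col11a1* (-0.50, 0.0469) were down-regulated; without *Mir140*-null replicates 1 and 2 none of the 5 passed (adjusted p = 0.0528 to 0.128). Genes encoded in mitochondria took 4.06% to 6.99% of the TPM in WT and 8.41% to 10.1% in *Mir140*-null libraries, and the part of this difference in the results was not tested. *Mir140*-null replicates 1 and 2 stood apart by *Col1a1*, a collagen of fibrous tissue, at 47.8 and 50.1 TPM against 793 to 1544 TPM in the other 6 libraries, and the sum of 7 fibroblast markers was 587 and 741 TPM against 3092 to 5915 TPM. *Pdgfra*, another marker of that list, went the other way, at 31.5 to 36.5 TPM in *Mir140*-null and 11.8 to 19.8 TPM in WT libraries (log2 fold change 1.03, limma adjusted p = 0.00846, and 0.98 and 0.0627 without both libraries). Where leaving out both of these libraries ended a call, the adjusted p without them is given below; such a fit has fewer libraries, and 2.08% of all tested genes were then up-regulated and 1.22% down-regulated. The sum of 14 leukocyte markers was 72.5 to 86.4 TPM in WT and 34.8 to 53.7 TPM in *Mir140*-null libraries. Of the 7 leukocyte markers tested, 4 were lower (*Lyz2*, *Itgam*, *Coro1a* and *Cd74*), beside 6.40% of all tested genes. Without both libraries with little *Col1a1*, *Cd74* passed, and *Lyz2*, *Itgam* and *Coro1a* did not (adjusted p = 0.126, 0.0537 and 0.235). In bulk RNA, fewer cells of a type and less RNA per cell cannot be told apart.

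In WT chondrocytes the genes of the group ranged from under 1 TPM to over 300 TPM, a scale per length on which genes can be compared. *H2-D1* had the highest level, 372 ± 62.1 TPM (SD, n = 4), followed by *B2m* at 291 ± 26.3 TPM and *H2-K1* at 205 ± 71.2 TPM. These levels lay above those of 97.9%, 97.5% and 96.7% of the tested genes, but neighbours in this order overlapped between libraries. *Tapbp* came next, at 53.5 ± 9.46 TPM, apart from the genes above and below it in every WT library. *Tap2*, at 5.43 ± 1.14 TPM, was also apart from its neighbours, although the lowest *Tap2* value, 3.95 TPM, was close to the highest *Tap1* value, 3.82 TPM. *Tap1* (3.31 ± 0.510 TPM) and *Psmb10* (3.28 ± 1.55 TPM) overlapped. *Nlrc5*, at 1.08 ± 0.274 TPM, overlapped with *Psmb9*, at 0.609 ± 0.562 TPM, which overlapped with *Psmb8*, at 0.351 ± 0.0850 TPM. Class I chains were thus among the abundant transcripts of these cells, *Tap1*, *Tap2* and *Psmb10* were level with the less abundant tested genes, above 36.4%, 47.1% and 36.1% of them, and *Nlrc5*, *Psmb9* and *Psmb8* were near the lower end of the range.

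**Figure D1:**
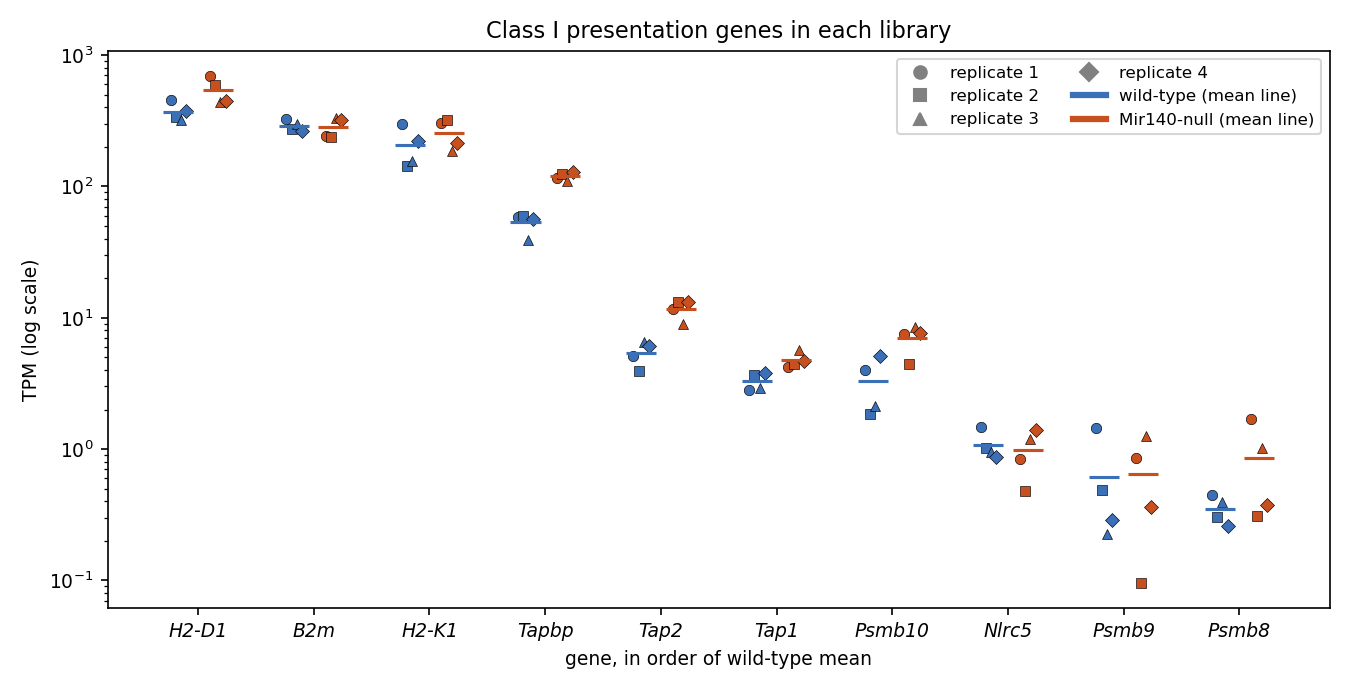
TPM of the 10 genes in each library on a log axis, in order of the WT mean, with blue for wild-type, orange for Mir140-null, a symbol for each replicate number and a line at each group mean. The Mir140-null libraries lie above all WT libraries for Tapbp (109 to 130 against 39.4 to 59.6 TPM), Tap2 and Tap1, and the genotypes overlap for the other genes.

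The comparison of genotypes used limma on log2(TPM + 1), a scale that understates the change of genes at a few TPM. It covered 17177 genes, those at 0.5 TPM or more in 4 or more of the 8 libraries, with Benjamini-Hochberg adjustment over all of them. Of the 10 genes, 8 were tested, 2 were up-regulated and 0 were down-regulated at an adjusted p under 0.05, where the corresponding shares of all tested genes were 10.5% and 6.40%. Without *Mir140*-null replicates 1 and 2, *Tapbp* (1 of the 8) was up-regulated, beside 2.08% of all tested genes. With all libraries, the unadjusted limma p was under 0.05 for 5 of the 8. The share of all tested genes at that level is not given here, so no excess can be read from this count. The 8 genes had a median log2 fold change of 0.47, beside -0.01 for all tested genes. The *Mir140*-null libraries lay entirely above the WT libraries for 3 of the 8 genes, which was so for 15.7% of all tested genes, and entirely below for 0 of the 8, which was so for 10.2%.

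Starting with the class I molecule, *B2m*, whose product is the light chain common to all classical heavy chains, was at 324, 273, 300.2 and 267 TPM in WT replicates 1 to 4. In the null libraries, in the same order, it was at 242, 238, 329 and 322 TPM. Its null libraries fell on both sides of the WT range, with replicates 1 and 2 below and replicates 3 and 4 near its upper end. The log2 fold change was -0.05 ± 0.14 (SE; limma adjusted p = 0.823), with a 95% interval of -0.37 to 0.27. It was 0.17 (adjusted p = 0.389) without *Mir140*-null replicates 1 and 2.

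*H2-K1*, a heavy chain that presents peptides to CD8 T cells, was at 299, 143, 157 and 223 TPM in WT replicates 1 to 4. Its null libraries, in the same order, were at 303, 321, 185 and 215 TPM. The genotypes overlapped widely, since WT replicate 1 was nearly as high as the higher null libraries. The log2 fold change was 0.34 ± 0.27 (SE; limma adjusted p = 0.411), and 0.02 (adjusted p = 0.980) without *Mir140*-null replicates 1 and 2.

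*H2-D1*, the other heavy chain of this kind, was at 458, 336, 319 and 376 TPM in WT replicates 1 to 4. The null libraries, in that order, held 693, 592, 440.0 and 446 TPM. The null libraries with little *Col1a1* were the highest, while the other two lay just below WT replicate 1. The log2 fold change was 0.53 ± 0.18 (SE; limma adjusted p = 0.0779), and fell to 0.27 (adjusted p = 0.351) without *Mir140*-null replicates 1 and 2. Across the 8 libraries the 2 heavy chain genes varied together, with a Pearson r of 0.85 on log2(TPM + 1), given as a description. Heavy chain sequences resemble each other: 6.90% of the 75-base windows of the longest *H2-D1* transcript and 1.55% of those of *H2-K1* also occur in transcripts of other genes, mostly other class I genes, so reads from these windows could be divided between genes. These genes are also highly polymorphic between mouse strains, and reads were assigned to a C57BL/6J reference. *Nnt*, part of which is deleted in C57BL/6J, was at 2.88 to 3.30 TPM in WT and 0.892 to 2.41 TPM in *Mir140*-null libraries (log2 fold change -0.65, adjusted p = 0.0555, and -0.33 and 0.192 without *Mir140*-null replicates 1 and 2), and *H2-Ea-ps*, a class II gene silent in C57BL/6 mice, was at 0 in every library. The part of strain differences in the class I values was not tested.

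The transporter genes came next. *Tap1* was at 2.81, 3.68, 2.94 and 3.82 TPM in WT replicates 1 to 4, against 4.25, 4.44, 5.68 and 4.65 TPM in the null libraries in the same order. Every null library was above every WT library, but by a small margin, and the log2 fold change of 0.42 ± 0.14 (SE; limma adjusted p = 0.0776) did not pass the threshold. It did pass after median-ratio scaling (adjusted p = 0.0452), quantile normalization (0.0314) and with 1 or 2 factors of unwanted variation (0.0486 and 0.0428). Over all 18 alternatives in which it was tested, its adjusted p ranged from 0.0314 to 0.175.

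*Tap2*, the partner of *Tap1* in the transporter, was at 5.12, 3.95, 6.52 and 6.11 TPM in WT replicates 1 to 4. Null replicates 1 to 4 held 11.7, 13.1, 8.89 and 13.3 TPM. All null libraries were higher than all WT libraries, with replicate 3 the lowest of them. The mean rose 2.16-fold, with a log2 fold change of 0.99 ± 0.18 (SE; limma adjusted p = 0.0140). Without *Mir140*-null replicates 1 and 2 the log2 fold change was 0.90 and the adjusted p 0.0906. On the opposite strand, the non-coding genes *Gm15821* and *Gm20496* share exon bases with *Tap2*, and neither exceeded 0.235 TPM in any library.

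*Tapbp* was the gene with the largest change in the group. It was at 58.3, 59.6, 39.4 and 56.7 TPM in WT replicates 1 to 4. The null libraries held 116, 124, 109 and 130 TPM. They lay close together and far above the WT range. The mean rose 2.24-fold, with a log2 fold change of 1.16 ± 0.15 (SE; limma adjusted p = 0.00571). Without *Mir140*-null replicates 1 and 2 it was again 1.16 (adjusted p = 0.0437). *Tapbp* passed the threshold in all 19 alternative analyses, at adjusted p of 0.00358 to 0.0437. It shares 149 exon bases with *Zbtb22* on the same strand and 904 with the antisense gene *Gm19412*. *Zbtb22* was at 2.94 ± 1.03 TPM in WT and 3.91 ± 0.276 TPM in *Mir140*-null libraries (log2 fold change 0.35, limma adjusted p = 0.219), and *Gm19412* had a log2 fold change of 0.10 (adjusted p = 0.809). Both neighbours were far below *Tapbp* in level.

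**Figure D2:**
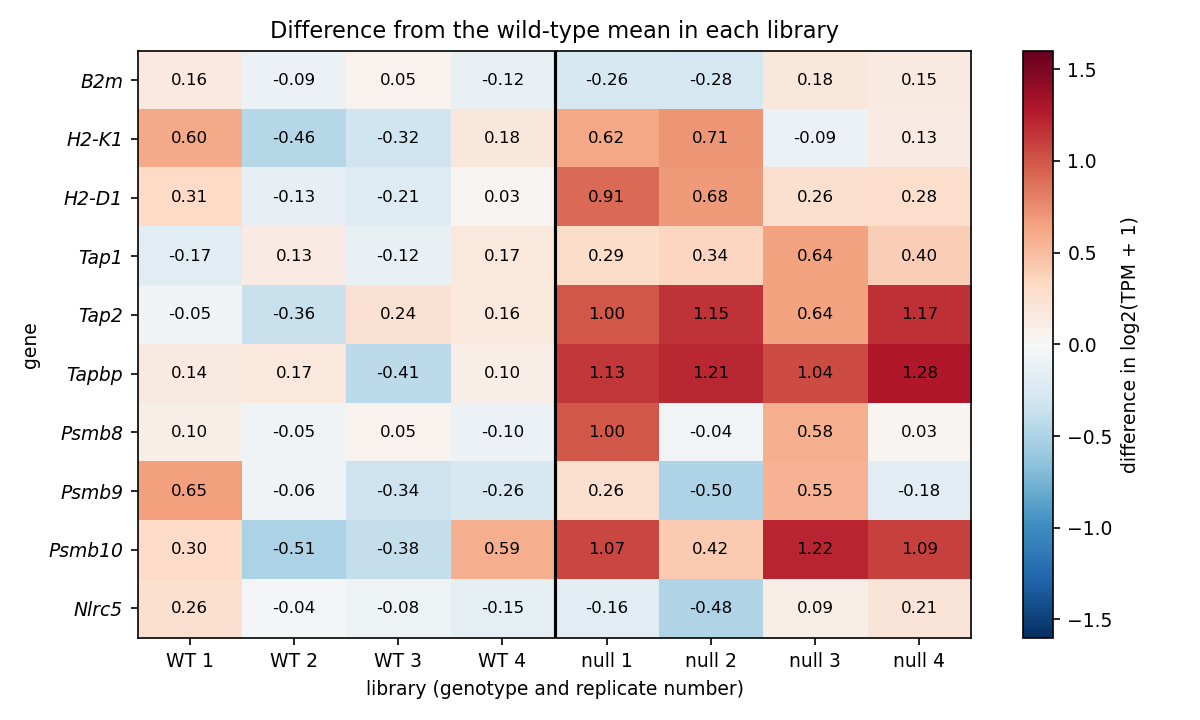
Difference of each library from the WT mean in log2(TPM + 1), with 1 row for each of the 10 genes and 1 column for each library. Tapbp, Tap2, Tap1, Psmb10 and H2-D1 are above the WT mean in all 4 Mir140-null libraries, Tapbp by 1.04 to 1.28. H2-K1 and H2-D1 are highest in Mir140-null replicates 1 and 2, and B2m is lowest there.

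Other proteins of loading and trimming in the endoplasmic reticulum moved in both directions. Among 12 such genes in the test, 3 rose and 1 fell, beside 10.5% and 6.40% of all tested genes. Their median log2 fold change was 0.09. *Erap1*, the aminopeptidase that trims peptides to class I length, rose from 9.19 ± 3.04 to 19.3 ± 4.30 TPM (log2 fold change 1.03, limma adjusted p = 0.0336). *Sec61a1* and *Sec61b*, subunits of the channel by which proteins enter the endoplasmic reticulum, rose by 0.56 (adjusted p = 0.0118) and 0.43 (adjusted p = 0.0262). Their log2 fold changes without *Mir140*-null replicates 1 and 2 were 0.79, 0.51 and 0.40, and none of the 3 passed (adjusted p = 0.2, 0.0520 and 0.112). *Calr*, calreticulin, a chaperone of the loading complex and of secreted proteins in general, decreased by 0.88, from 1101 ± 153 to 595 ± 37.4 TPM (adjusted p = 0.00651, and 0.0394 without these replicates). *Pdia3*, the oxidoreductase joined to tapasin by a disulfide bond, was lower in every null library at -0.28 (adjusted p = 0.0501). *Tapbpl*, a relative of *Tapbp* that edits peptides away from the transporter, was at 5.003 ± 0.997 and 6.17 ± 1.38 TPM (log2 fold change 0.25, adjusted p = 0.372). None of the 9 cytosolic peptidases tested passed the threshold.

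The immunoproteasome subunits were low. *Psmb8* (subunit beta5i) was at 0.445, 0.303, 0.397 and 0.259 TPM in WT replicates 1 to 4, against 1.69, 0.311, 1.02 and 0.376 TPM in null replicates 1 to 4. *Psmb9* (beta1i) was at 1.44, 0.486, 0.225 and 0.291 TPM in WT, against 0.848, 0.0963, 1.27 and 0.362 TPM in the null libraries. For *Psmb8* 2 null libraries were above the WT range and 2 within it, for *Psmb9* 1 was below and 3 within, and both genes did not reach 0.5 TPM in enough libraries to be tested. With no filter on low values, *Psmb8* had a log2 fold change of 0.39 (limma adjusted p = 0.402) and *Psmb9* of 0.03 (adjusted p = 0.970). *Psmb10* (beta2i) was at 4.02, 1.86, 2.12 and 5.11 TPM in WT replicates 1 to 4, against 7.55, 4.45, 8.50 and 7.65 TPM in null replicates 1 to 4. Of its null libraries only replicate 2 lay within the WT range. The log2 fold change was 0.95 ± 0.29 (SE; limma adjusted p = 0.0577), of the same size as that of *Tap2* but with a wider spread.

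Their constitutive counterparts were higher in level. *Psmb5* was at 16.1 ± 1.68 TPM in WT and 21.1 ± 1.98 TPM in *Mir140*-null libraries (log2 fold change 0.37, limma adjusted p = 0.0660), and *Psmb6* at 47.7 ± 3.55 and 54.6 ± 7.95 TPM (0.18, adjusted p = 0.332). *Psmb7* rose from 23.9 ± 1.25 to 38.0 ± 9.02 TPM (0.62, adjusted p = 0.0390, and 0.141 without *Mir140*-null replicates 1 and 2). The ratio of an immuno subunit to its counterpart in the same library does not depend on scaling between libraries. *Psmb8* amounted to 1.47% to 2.70% of *Psmb5* in WT and 1.504% to 7.11% in *Mir140*-null libraries. *Psmb9* amounted to 0.459% to 2.77% of *Psmb6* in WT and 0.202% to 2.21% in *Mir140*-null libraries. *Psmb10* amounted to 8.19% to 21.5% of *Psmb7* in WT and 12.0% to 27.3% in *Mir140*-null libraries. The constitutive subunits therefore predominated in both genotypes. In log2 units the ratios differed between null and WT by 0.57, -0.26 and 0.55, with exact permutation p = 0.371, 0.8 and 0.257 (two-sided, adjusted over the 3 ratios 0.557, 0.8 and 0.557), where the smallest p that 70 assignments allow is 0.0286. The ratios differed by 0.54, 0.40 and 1.002 when *Mir140*-null replicates 1 and 2 were left out (exact permutation p = 0.467, 0.733 and 0.133, where 15 assignments allow none under 0.0667). No difference in the ratios was detectable beyond the spread between libraries.

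**Figure D3:**
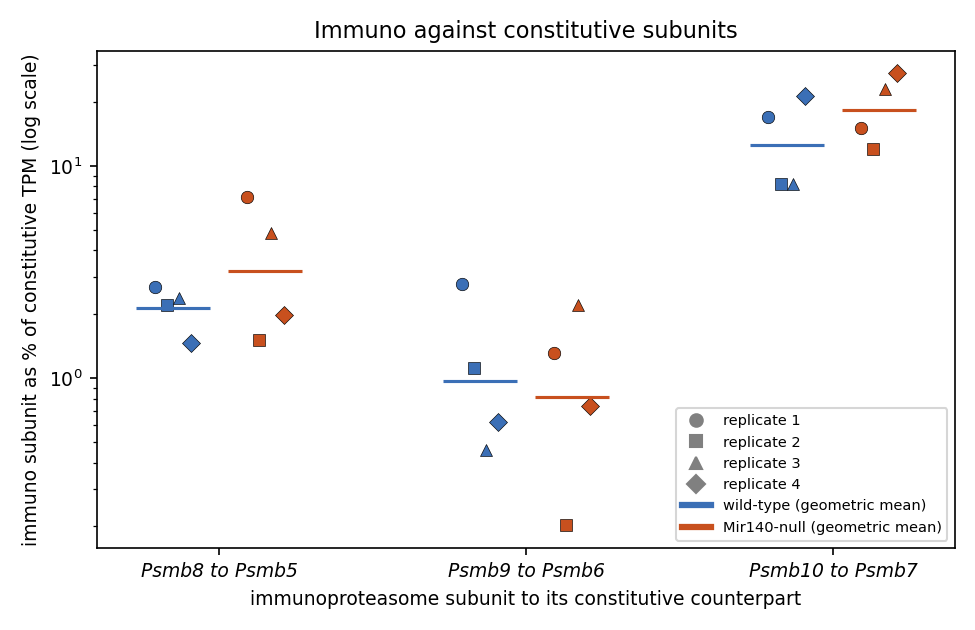
Immunoproteasome subunit as a percentage of the TPM of its constitutive counterpart in each library, on a log axis, with a line at the geometric mean of each genotype and a symbol for each replicate number. The genotypes overlap for all 3 pairs, and Psmb10 to Psmb7 is the highest at 8.19% to 27.3%.

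Among 16 further 20S subunits and assembly factors in the test, 3 rose and 0 fell, beside 10.5% and 6.40% of all tested genes. Their median log2 fold change was 0.40. Those that rose were *Psma6* (0.69, limma adjusted p = 0.00993), a ring subunit, and the assembly chaperones *Psmg4* (0.74, adjusted p = 0.0273) and *Psmg2* (0.54, adjusted p = 0.0311). Among 4 proteasome activator genes tested, *Psme3*, which encodes a nuclear activator, was up-regulated (0.79, adjusted p = 0.0395). The interferon-inducible activator genes *Psme1* and *Psme2* had log2 fold changes of 0.11 (adjusted p = 0.763) and 0.01 (adjusted p = 0.966). Of these 4 up-regulated genes, *Psma6* passed without *Mir140*-null replicates 1 and 2 (adjusted p = 0.0401), and *Psmg4*, *Psmg2* and *Psme3* did not (0.134, 0.0976 and 0.0982), at log2 fold changes of 0.68, 0.42 and 0.41.

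*Nlrc5*, the class I transactivator, was at 1.48, 1.02, 0.955 and 0.872 TPM in WT replicates 1 to 4, against 0.847, 0.482, 1.20 and 1.39 TPM in null replicates 1 to 4. The genotypes overlapped, with 2 null libraries below the WT range and 2 within it. The log2 fold change was -0.09 ± 0.17 (SE; limma adjusted p = 0.759). Its sign and that of *B2m* turned under several alternatives, and no direction is given for either. *Nlrc5* and *B2m* varied together across the 8 libraries, with a Pearson r of 0.88, and so did *Tap2* and *Tapbp*, at 0.84. *Nlrc5* did not vary in this way with the other tested genes of the group. Its r was -0.26 with *H2-K1*, -0.32 with *H2-D1*, -0.14 with *Tap1*, -0.30 with *Tap2*, -0.14 with *Tapbp* and 0.15 with *Psmb10*. All libraries of both genotypes enter these values, so that a genotype difference shared by 2 genes raises their r.

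Among 18 factors and cofactors of class I promoters in the test, 4 rose and 0 fell, beside 10.5% and 6.40% of all tested genes. Their median log2 fold change was 0.15. The null libraries lay entirely above the WT libraries for 5 of the 18 and entirely below for 3. *Irf7* (-1.04, limma adjusted p = 0.105), *Irf8* (-0.92, 0.0705) and *Nfya* (-0.41, 0.0575) had negative log2 fold changes and did not pass. *Nfkb1*, an NF-kappaB subunit, rose from 52.1 ± 9.99 to 138 ± 37.2 TPM (log2 fold change 1.36, limma adjusted p = 0.00905). *Irf2*, an interferon regulatory factor, rose by 0.59 (adjusted p = 0.0328), *Creb1*, a factor that binds TGACG, by 0.59 (adjusted p = 0.0355), and *Rfx5*, which anchors NLRC5 at class I promoters, by 0.81 (adjusted p = 0.0379). *Nfkb1* also passed without *Mir140*-null replicates 1 and 2 (1.04, adjusted p = 0.0474), and *Irf2* (0.58, 0.116), *Creb1* (0.51, 0.108) and *Rfx5* (0.50, 0.192) did not. *Irf1*, an interferon-inducible activator of these genes, was at 81.5 ± 38.7 and 97.4 ± 20.98 TPM (0.33, adjusted p = 0.463, and 0.083 and 0.917 without these replicates).

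Among 11 interferon ligand, receptor, kinase and inhibitor genes in the test, 4 rose and 0 fell, beside 10.5% and 6.40% of all tested genes. Their median log2 fold change was -0.05. The kinase gene *Jak2* rose by 0.94 (limma adjusted p = 0.00729), the phosphatase gene *Ptpn2*, an inhibitor of that kinase family, by 0.89 (adjusted p = 0.0138), the receptor chain *Ifngr2* by 0.58 (adjusted p = 0.0226), and *Jak1*, which the naming rule did not cover, by 0.62 (adjusted p = 0.0309). *Ifngr2* (0.61, adjusted p = 0.0946) and *Jak1* (0.70, adjusted p = 0.104) did not pass without *Mir140*-null replicates 1 and 2. *Ifng*, the ligand gene, was at 0 in 6 of the 8 libraries. None of 7 interferon-gamma induced genes outside presentation passed the threshold, and their median log2 fold change was -0.17. The summed TPM of the full list of 12, to which the chemokine gene *Cxcl10* contributed most, was 984 in WT replicate 1 and 360.1 to 559.8 in the other WT libraries. In the *Mir140*-null libraries the sum of these genes was 263 to 398 TPM. WT replicate 1 also had the highest WT value of *B2m*, *H2-K1*, *H2-D1*, *Nlrc5*, *Psmb8* and *Psmb9*.

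Other heavy chain genes of the MHC and class I-like genes were also measured. Among 16 of them in the test, 2 rose and 0 fell, beside 10.5% and 6.40% of all tested genes. Their median log2 fold change was -0.09. *Mr1*, which presents vitamin metabolites to a T cell subset, rose from 1.88 ± 0.402 to 6.16 ± 0.535 TPM (1.32, limma adjusted p = 0.00402). *Hfe*, a class I-like protein of iron regulation, rose from 1.87 ± 0.159 to 4.98 ± 0.5998 TPM (1.06, adjusted p = 0.00525). Both passed without *Mir140*-null replicates 1 and 2 (adjusted p = 0.0294 and 0.0232). Neither presents peptides to CD8 T cells, and both products pair with beta2-microglobulin.

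MHC class II genes serve presentation by specialised leukocytes. Among 6 in the test, 0 rose and 3 fell, beside 10.5% and 6.40% of all tested genes. *Cd74*, the class II invariant chain, decreased by 1.28, from 41.2 ± 7.15 to 16.3 ± 2.71 TPM (limma adjusted p = 0.00596), *H2-Aa* by 1.17 (adjusted p = 0.0137) and *H2-Eb1* by 0.97 (adjusted p = 0.0136). Without *Mir140*-null replicates 1 and 2, *Cd74* passed (adjusted p = 0.0442) and the other two did not (0.0610 and 0.0782). The leukocyte marker sum given above was lower in the same libraries, and its part in this result was not tested. *Cd74* belongs to that list as well, and the sum was 72.5 to 86.4 TPM in WT and 34.8 to 53.7 TPM in *Mir140*-null libraries. With *Cd74* at 41.2 and 16.3 TPM, the sum is not separate from the *Cd74* result.

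**Figure D4:**
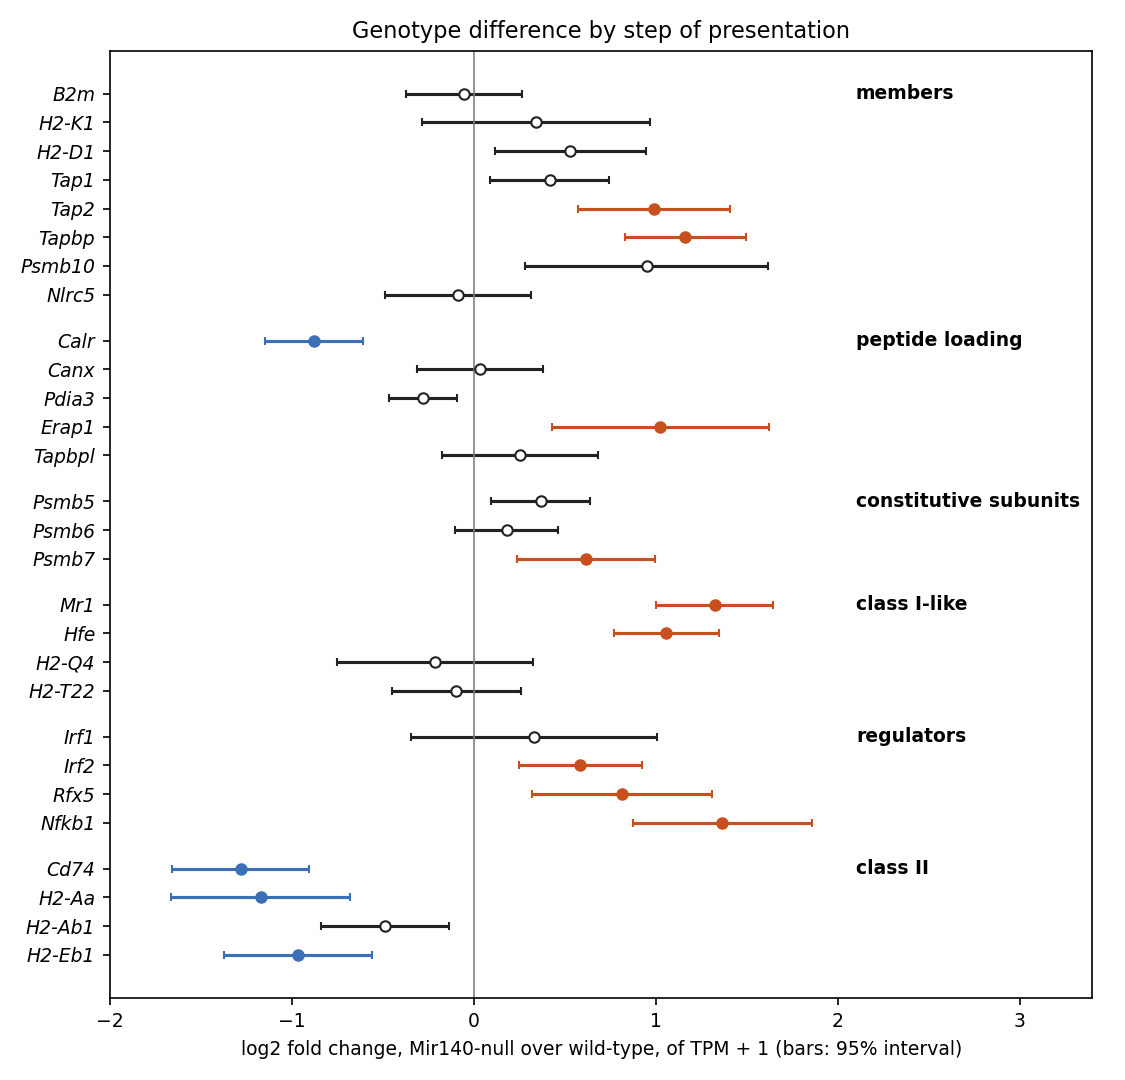
Log2 fold change of Mir140-null over wild-type for the 8 tested genes of the group and for selected genes of 5 related lists, on the log2(TPM + 1) scale with 95% intervals. Filled orange points are up-regulated and filled blue points down-regulated at a limma adjusted p under 0.05, and open points did not pass; Tapbp at 1.16 and Tap2 at 0.99 are filled in the group, and Cd74 at -1.28 is the lowest point.

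The genes most like the group across the libraries were those with the highest Pearson r to the mean of the 8 tested genes, each set to a common scale over the 8 libraries. They were *Rnf220* (r = 0.98), *Mbd1* (0.98), *Ccl20* (0.97), *Sugp1* (0.97) and *Slc39a13* (0.97). In all 5 the *Mir140*-null libraries lay above the WT libraries, as a high r to this mean favours. *Ccl20*, a chemokine gene, rose from 3.36 ± 0.670 to 6.76 ± 0.716 TPM (log2 fold change 0.84, limma adjusted p = 0.0129), *Slc39a13*, a zinc transporter gene, from 69.3 ± 7.84 to 95.3 ± 6.77 TPM (0.46, adjusted p = 0.0292), and *Mbd1*, a methyl-CpG binding protein gene, from 8.51 ± 0.759 to 11.7 ± 0.856 TPM (0.42, adjusted p = 0.0403). When *Mir140*-null replicates 1 and 2 were left out, their log2 fold changes were 0.93, 0.52 and 0.50, and none passed (adjusted p = 0.0537, 0.0852 and 0.0849). *Mbd1* also passed in 0 of the 8 fits without a single library.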

How the data were processed

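Costal chondrocyte RNA of 4 wild-type and 4 *Mir140*-null libraries was prepared with a stranded poly(A) kit and sequenced to over 12000000 single-end reads of 75 bases each, per the labels. For each library the authors deposited gene-level TPM under Ensembl identifiers, from Salmon run against the transcriptome of mm10. The Salmon version, the use of strand and the step from transcripts to genes are not given in the sources used here. The submitters' processing notes also name FastQC 0.11.7. TPM are corrected for transcript length and library total only; without read counts, the depth of a value is unknown and counting error could not be given. The batch factors that the study estimated with RUVSeq before DESeq2 are not in these values, and TPM cannot be tested with a count model, so limma was used.

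Each file had 52865 lines for 52325 identifiers, and repeated identifiers were counted once. Genotype and replicate number were read from the titles. The 17177 genes at 0.5 TPM or more in 4 or more of 8 libraries were fitted with limma 3.58.1 in R 4.3.3 on log2(TPM + 1), with a mean-variance trend and genotype as the only term, two-sided, with Benjamini-Hochberg adjustment over all genes and a threshold of 0.05. Subunit ratios were compared by exact permutation. Python 3.11.15, NumPy 2.4.6, SciPy 1.17.1, pandas 2.3.3 and matplotlib 3.10.9 were used otherwise, the fit was tested on simulated data, and positions, transcripts and 3′UTRs came from GENCODE M21 (GRCm38). The 3′UTR of a gene was its longest annotated one; of several RefSeq start sites of a gene the first listed was used.

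The genes, lists and tests were chosen with earlier results of these data known. The genes named were the 10 members, *Psmb5*, *Psmb6*, *Psmb7*, *Irf1*, *Rfx5*, *Mir140*, genes marking strain, the 5 genes most like the group and, from each list, up to 3 called genes per direction with the smallest p. Some genes and a motif covered by these choices are not reported here. Other genes were named after their values were seen. Alternatives to these settings were another pseudocount (0.1), no filter or one at a mean of 5 TPM, scaling by median ratios, by quantiles or over nuclear protein-coding genes, a block for replicate number, factors of unwanted variation (1 or 2, RUVr, from a singular value decomposition of the residuals), quality weights and each library left out; leaving out *Mir140*-null replicates 1 and 2 together was chosen after seeing the data.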

Additional observations from a re-analysis of the deposited data

Results flagged for a closer look

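Among 38 groups of 4 libraries examined with Dixon's criterion, which chance exceeds in about 1 in 20 groups, 1 value stood far from the others of its group. It was the lowest WT value of *Tapbp*, 39.4 TPM in WT replicate 3, against 56.7 to 59.6 TPM in the other WT libraries. The log2 fold change of *Tapbp* without each library in turn was 1.03 to 1.22, and it passed the threshold in all 8 of these fits.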

How the results depend on the processing

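Deviations from the group means correlated at 0.03, 0.02, 0.07 and -0.01 between same-numbered libraries, so little was shared by replicate number. Such values cannot show whether same-numbered libraries were collected or prepared together. With replicate number as a block, 1125 genes and 1 gene of the group (*Tapbp*) were called, and *Tap2* had an adjusted p of 0.0537. Genes called by genotype numbered 2897 as reported, 1516 with no filter, 4476 and 4861 with 1 and 2 RUVr factors, 1202 to 2767 without each library in turn, and 567 without *Mir140*-null replicates 1 and 2. The up-regulated genes of the group were 4 with 1 and with 2 RUVr factors, 2 without each library in turn and 1 without *Mir140*-null replicates 1 and 2, and none was down-regulated in these fits. Of all 17177 tested genes, 1797 were up-regulated as reported, and 2460 and 2708 with 1 and 2 RUVr factors. The number was 779 to 1553 without each library in turn and 357 without *Mir140*-null replicates 1 and 2. *H2-D1* passed with 1 and 2 RUVr factors (adjusted p = 0.0118 and 0.00881). The share of calls that were higher was 62.0%, and 73.1% with the filter at a mean of 5 TPM, where the median of all genes moved to 0.11.

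The ratio of *Psmb9* to *Psmb6* ranged from -0.74 to 0.41 without each library in turn, turning positive without WT replicate 1 (0.25) or *Mir140*-null replicate 2 (0.41), and was 0.40 without *Mir140*-null replicates 1 and 2. The other ratios ranged from 0.19 to 0.94 (*Psmb8*) and from 0.35 to 0.81 (*Psmb10*), and were 0.54 and 1.002 without *Mir140*-null replicates 1 and 2. *B2m*, at -0.13 to 0.025 without each library in turn, turned positive with quality weights (0.043) and without WT replicate 1, *Mir140*-null replicate 1, replicate 2 or both (0.17). *Nlrc5*, at -0.19 to 0.045 without each library in turn, did so with quantile normalization (0.065), quality weights (0.031), and without WT replicate 1, *Mir140*-null replicate 2 or both replicates 1 and 2 (0.15). Of the log2 fold changes of all named genes, 692 values under alternatives kept direction and side of the threshold, 150 lost and 13 gained the call, and 10 turned. The causes were not tested.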
